A study of Mus musculus with 14 samples.

Results

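The miR-181 family of the mouse epididymis was described from the mature miRNAs miR-181a-5p, miR-181b-5p, miR-181c-5p, miR-181d-5p and miR-181c-3p, which were taken by name from 2 tables of counts. All 5 were listed among the 900 mature miRNAs of the whole tissue table and among the 677 of the epithelial cell table, so that they made up 5 of the 999 names found in either table, 578 of which the tables shared. A microRNA guides Argonaute proteins to messenger RNAs that pair with its seed, the stretch of bases near its 5′ end, and lowers their translation or stability. Each miRNA is cut from a hairpin precursor whose arms give a 5p and a 3p product, of which usually the more abundant acts as the guide. The miR-181 miRNAs are best known from developing lymphocytes, where they tune the response of T cells to antigen, and from differentiating muscle, while the epididymis is the duct in which sperm mature on their way from the caput through the corpus to the cauda.

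Small RNA had been sequenced from the caput, corpus and cauda of male Swiss mice aged 8 weeks, for which the labels give no treatment. For both preparations, blood had been flushed from the vessels before dissection. Whole tissue gave 3 caput, 2 corpus and 3 cauda libraries, and epithelial cells isolated from each region gave 2 libraries per region. Tissue or cells of several mice were pooled for each library, with more mice per pool for the cells than for whole tissue. The study calls its replicates biological in places and technical in another. Its methods name 2 replicates, with libraries run in triplicate, which does not match the 3, 2 and 3 whole tissue libraries deposited. Errors and p-values thus measure the spread between libraries and not that between animals. The 14 libraries differed in depth, with 1243398 to 2135501 counts in whole tissue and 89039 to 362867 in epithelial cells, and the median total was 7.11 times as high in whole tissue.

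Levels are given in CPM, the counts of a miRNA per 1000000 counts of the library, after the totals of the 14 libraries had been scaled with 1 set of factors from the trimmed mean of M-values (TMM). Counts of the family were high enough for each member to be measured in each library. The lowest count of miR-181c-5p was 24043 in whole tissue, with a counting error of 0.645%, and 1108 in epithelial cells, with a counting error of 3.004%. For the scarcer members the lowest counts came from the epithelial corpus, at 36 for miR-181c-3p and 32 for miR-181b-5p, and carried counting errors of 16.7 and 17.7%. How readily each sequence entered the libraries was not measured, and differences in level between members are differences in counts.

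The mature sequences show which members share a seed and how little separates them. They were read from RefSeq (GRCm38.p6) for all 5 members and for miR-181a-1-3p, the 3p arm of the Mir181a-1 hairpin, and are written 5′ to 3′ with the seed, bases 2 to 8, in capitals.
miR-181a-5p: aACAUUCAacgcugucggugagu
miR-181b-5p: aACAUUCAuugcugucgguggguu
miR-181c-5p: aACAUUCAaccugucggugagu
miR-181d-5p: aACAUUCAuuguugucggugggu
miR-181c-3p: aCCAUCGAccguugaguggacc
miR-181a-1-3p: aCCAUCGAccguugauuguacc
The seed ACAUUCA was shared by the 4 members of the 5p arm and by no other of the 1679 mature mouse names in the reference. A different seed, CCAUCGA, was carried by miR-181c-3p and miR-181a-1-3p and again by no other name. With positions counted from 1 at the 5′ end of the first-named sequence, miR-181a-5p and miR-181b-5p differed by A9U, C10U and A21G, and by the length of 23 against 24 bases. A single change, C12U, and the length of 24 against 23 bases separated miR-181b-5p from miR-181d-5p, while miR-181c-5p equalled miR-181a-5p apart from 1 base that it lacked. The 3p sequences miR-181c-3p and miR-181a-1-3p differed by G16U and G19U.

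The family is encoded at 3 places in the mouse genome, each with a pair of hairpins. On chromosome 8, on the minus strand and within an intron of Nanos3, a gene of germ cell development read from the same strand, Mir181d lay at 84178716 to 84178787 and Mir181c at 84178873 to 84178961 (GRCm38), with 85 bases between them. Chromosome 1 carried Mir181a-1 at 137966455 to 137966541 and Mir181b-1 at 137966639 to 137966718 on the plus strand, 97 bases apart, in an intron of the non-coding transcript Gm4258 of the same strand. The Mir181b-1 hairpin also fell within an exon of the long non-coding RNA A430106G13Rik, which Mir181a-1 overlapped by 11 bases. On chromosome 2, Mir181a-2 at 38852735 to 38852810 and Mir181b-2 at 38853830 to 38853918 lay on the plus strand, 1019 bases apart, opposite an intron of Nr6a1, which encodes a nuclear receptor of germ cells. The 5p products of a and b each come from 2 hairpins, so that their counts could not be divided between the loci, whereas miR-181c and miR-181d each come from 1.

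Counts of miR-181b-5p and miR-181d-5p were linked, which limits how well these members can be told apart. Fractional counts, taken here as reads divided between mature sequences, occurred for both in the same 5 of 14 libraries, 4 of whole tissue and 1 of epithelial cells, and for no other member in any of the 14. The division between miR-181b-5p and miR-181d-5p is uncertain to that extent.

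The family was abundant throughout, and miR-181c-5p and miR-181a-5p made up most of it. In whole tissue the 5 members took 3.46 ± 0.354% (SD, n = 3) of all counts in caput libraries, 3.03 ± 0.177% (n = 2) in corpus libraries and 3.43 ± 0.102% (n = 3) in cauda libraries. Epithelial cells gave 1.94 ± 0.181%, 2.60 ± 0.217% and 2.89 ± 0.0991% (n = 2 each), so that the caput stood lowest there. Of the family's own counts, miR-181c-5p contributed 62.0, 60.5 and 61.9% in whole tissue caput, corpus and cauda, and 40.2, 51.2 and 41.8% in the epithelial cells. For miR-181a-5p the shares were 31.1, 32.1 and 31.7% in whole tissue and 52.7, 40.1 and 50.8% in epithelial cells. By mean level miR-181c-5p ranked at 10 of the 900 listed miRNAs in each region of whole tissue and at 18, 14 and 18 of 677 in the epithelial caput, corpus and cauda, while miR-181a-5p ranked between 14 and 18 in all 6 groups. The remaining members lay lower, with miR-181d-5p between 47 and 68, miR-181c-3p between 58 and 108 and miR-181b-5p between 88 and 106.

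In whole tissue the order of the members was miR-181c-5p, miR-181a-5p, miR-181d-5p, miR-181c-3p and miR-181b-5p in each region, and their neighbours in that order did not overlap except for miR-181d-5p and miR-181c-3p in the caput. Epithelial cells differed at both ends of the order. There miR-181a-5p stood above miR-181c-5p in the caput, 1.31 times by the means, and below it in the corpus, where miR-181c-5p was 1.28 times as high. In the epithelial cauda the libraries of these members overlapped, with miR-181a-5p at 16382 and 11350 CPM and miR-181c-5p at 10652 and 11807 CPM. Toward the bottom, miR-181b-5p and miR-181c-3p overlapped in the epithelial caput and corpus, and in the cauda miR-181b-5p was 1.47 times as high as miR-181c-3p without overlap.

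**Figure D1:**
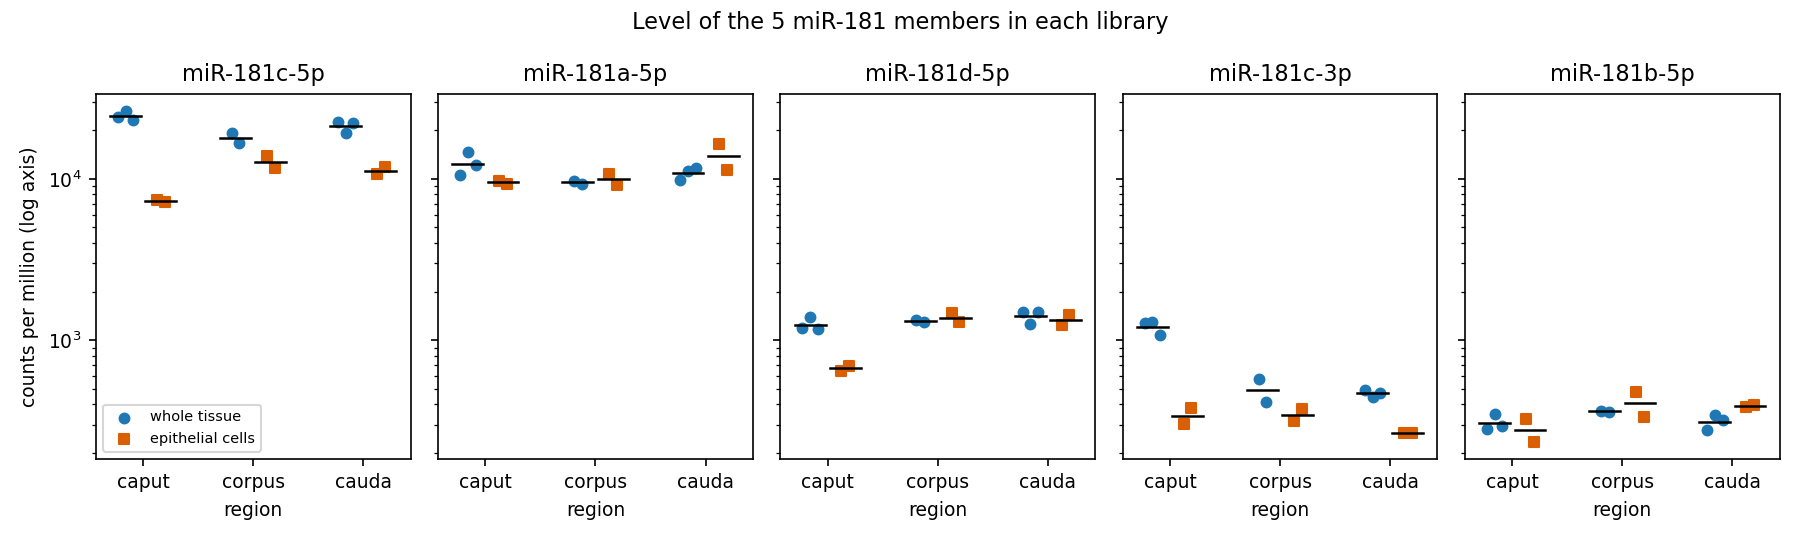
Level of each miR-181 member in each of the 14 libraries, in CPM on a log axis, by region, with circles for whole tissue, squares for epithelial cells and a bar at each group mean. The whole tissue caput libraries of miR-181c-3p, at 1079 to 1286 CPM, sit above all its other libraries, which lie between 264 and 576 CPM, and the epithelial caput libraries of miR-181c-5p, at 7141 and 7362 CPM, sit below all its others.

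Along the duct in whole tissue, miR-181c-3p was the member whose level changed most, standing high in the caput and low in both later regions. The arm opposite to it, miR-181c-5p, and miR-181a-5p were lower past the caput by a smaller amount that depended on the scaling. Under TMM scaling no change passed the test for miR-181b-5p or miR-181d-5p. The comparisons ask how the family is distributed along the duct, and in these bulk samples fewer cells of a type and less RNA per cell cannot be told apart.

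The level of miR-181c-3p in whole tissue was 1269, 1286 and 1079 CPM in caput libraries, 576 and 411 CPM in corpus libraries and 491, 443 and 467 CPM in cauda libraries. Every caput library lay above every corpus and cauda library, while corpus and cauda overlapped. It fell 2.65-fold from caput to corpus (log2 change −1.41 ± 0.16 SE, 95% interval −1.76 to −1.06, limma adjusted p = 4.9e-05) and 2.86-fold from caput to cauda (−1.52 ± 0.14, −1.82 to −1.21, adjusted p = 3.9e-06). For miR-181c-5p the libraries read 24059, 26455 and 23204 CPM in caput libraries, 19133 and 16711 CPM in corpus libraries and 22524, 19219 and 22189 CPM in cauda libraries. All caput values were again the highest, without overlap, though the cauda stood close below them. The log2 change of miR-181c-5p was −0.55 ± 0.11 from caput to corpus (adjusted p = 0.002) and −0.35 ± 0.098 from caput to cauda (adjusted p = 0.0073). Levels of miR-181a-5p were 10497, 14579 and 12116 CPM in caput libraries, 9650.02 and 9337 CPM in corpus libraries and 9858, 11232 and 11597 CPM in cauda libraries. Here the caput lay above the corpus without overlap and overlapped the cauda, and the spread was widest within the caput. Its log2 change was −0.47 ± 0.14 from caput to corpus (adjusted p = 0.014) and −0.32 ± 0.12 from caput to cauda (adjusted p = 0.03). Between 1165 and 1490.3 CPM of miR-181d-5p and between 276 and 365 CPM of miR-181b-5p were found in the 8 libraries, with log2 changes of −0.12 to 0.15 out of the caput.

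Thus 3 of the 5 members passed from caput to corpus, all of them lower, beside 59.3% of the 334 miRNAs tested, 32.6% of which passed with a fall, a share of passing members close to that of all miRNAs. At least 2-fold was reached by miR-181c-3p alone, 1 of 5, beside 29.9% of all. From caput to cauda 3 of 5 passed, all lower, beside 79.2% of 355 tested and 41.4% with a fall, and 1 of 5 changed at least 2-fold beside 53.2%. From corpus to cauda limma passed 0 of 5 members beside 54.3% of 341, with 0 at an unadjusted p under 0.05 and 0 by edgeR or DESeq2, and their log2 changes lay between −0.27 and 0.20. The median log2 change of the members was −0.47 from caput to corpus, beside −0.052 over all miRNAs, and −0.32 from caput to cauda, beside −0.046.

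Scaling to library totals, which moved the median log2 change of all miRNAs up by 0.33 between caput and corpus and by 0.35 between caput and cauda, took miR-181a-5p to −0.13 (adjusted p = 0.37) and miR-181c-5p to −0.22 (adjusted p = 0.095) from caput to corpus, and to 0.024 (adjusted p = 0.86, the direction turned) and −0.0045 (adjusted p = 0.98) from caput to cauda, whereas miR-181c-3p passed in both comparisons at −1.07 and −1.17. Under the same scaling miR-181b-5p (0.48, adjusted p = 0.012) and miR-181d-5p (0.32, adjusted p = 0.037) passed as higher in the corpus than in the caput, and miR-181d-5p (0.38, adjusted p = 0.006) as higher in the cauda, so that which members differ from the caput depended on the scaling for all but miR-181c-3p. Among the fits without 1 library, miR-181c-5p missed the threshold from caput to corpus without corpus replicate 2 (−0.40, adjusted p = 0.051) and from caput to cauda without caput replicate 2 (−0.21, adjusted p = 0.076), and miR-181a-5p missed it from caput to corpus without caput replicate 2 (−0.26, adjusted p = 0.081), caput replicate 3 (−0.44, adjusted p = 0.053) or corpus replicate 2 (−0.39, adjusted p = 0.16) and from caput to cauda without caput replicate 2 (−0.11), caput replicate 3 (−0.29), corpus replicate 1 (−0.31), corpus replicate 2 (−0.26), cauda replicate 1 (−0.26) or cauda replicate 2 (−0.33), as it did with the DESeq2 Wald test (−0.24, adjusted p = 0.081) and with DESeq2 size factors (−0.23, adjusted p = 0.092).

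Marker miRNAs of several cell types moved along the duct in the same whole tissue libraries in which miR-181c-3p was highest in the caput. By their means under TMM scaling, miR-181c-5p and miR-181a-5p were highest there too, though miR-181a-5p overlapped the cauda. The 7 epithelial markers, all listed and led by miR-200a-3p, summed to 22202, 22927 and 22536 CPM in caput libraries, 19321 and 18469.9 CPM in corpus libraries and 10800.1, 8980.4 and 10143 CPM in cauda libraries, and 7 of 7 fell from caput to cauda. In these counts a marker rose or fell only if its change from caput to cauda passed by limma. Of the 6 smooth muscle names 4 were listed, led by miR-143-3p, with sums of 65002, 55471 and 54644, then 85019 and 80800, then 265914, 243605 and 279651 CPM, and 4 of 4 rose from caput to cauda. The 12 germ cell markers, all listed and led by miR-34c-5p, summed to 4370.1, 5367 and 5132, then 5737 and 6658, then 16019, 12054 and 14247 CPM, and 12 of 12 rose. Like miR-181c-3p, the epithelial list was thus highest in the caput, and the muscle and germ cell lists were highest in the cauda. Fibroblast markers, 6 of 6 listed with miR-199a-5p highest, gave 2377, 2031 and 2275, then 3934 and 4092, then 4065, 4738 and 4382 CPM, and 6 of 6 rose. Striated muscle markers, 6 of 6 listed with miR-133a-3p highest and miR-206-3p at 0 in the caput, gave 33.0, 33.3 and 34.4, then 65.6 and 187, then 158, 557 and 1203 CPM, and 6 of 6 rose. Red blood cell markers, 4 of 6 names listed with miR-486a-5p highest, gave 96.3, 92.1 and 89.6, then 292 and 252, then 916, 1360.2 and 1486 CPM, and 4 of 4 rose. These lists too were lowest in the caput. Endothelial markers, 2 of 4 names listed with miR-126a-5p highest, gave 17981, 14247 and 15516, then 15600.3 and 14777, then 18240.3, 18906 and 18409 CPM, and 1 of 2 rose. Leukocyte markers, 3 of 5 names listed with miR-150-5p highest, gave 85.6, 64.5 and 77.8, then 166 and 189.7, then 168, 185 and 270.04 CPM, and 3 of 3 rose, while with the names miR-142a-3p and miR-142a-5p, added after the table had been seen, the list summed to 952, 1028 and 1191, then 1228 and 1536, then 2108, 2164 and 2238 CPM, with miR-142a-5p highest and 5 of 5 rising. Their part in the changes of the miR-181 members was not tested.

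Among epithelial cells the pattern along the duct was a different one, in which miR-181d-5p was lowest in the caput. It rose into the corpus and stayed above the caput in the cauda. The caput libraries were also the lowest for miR-181c-5p, whose change missed the threshold. No fall out of the caput passed for any member.

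The level of miR-181d-5p in epithelial cells was 643 and 693 CPM in caput libraries, 1466 and 1296 CPM in corpus libraries and 1237 and 1438 CPM in cauda libraries. Both caput libraries lay well below the other 4, and corpus and cauda overlapped. It rose 1.82-fold from caput to corpus (log2 change 0.86 ± 0.20 SE, 95% interval 0.40 to 1.33, limma adjusted p = 0.018) and 1.74-fold from caput to cauda (0.80 ± 0.19, 0.36 to 1.24, adjusted p = 0.014). Libraries of miR-181c-5p read 7362 and 7141 CPM in caput libraries, 13775 and 11578 CPM in corpus libraries and 10652 and 11807 CPM in cauda libraries. The caput did not overlap the later regions, which overlapped each other. Its log2 change was 0.61 ± 0.19 from caput to corpus (adjusted p = 0.051) and 0.43 ± 0.19 from caput to cauda (adjusted p = 0.097). For miR-181c-3p the epithelial libraries held 301 and 378 CPM in caput libraries, 314 and 376 CPM in corpus libraries and 264 and 267 CPM in cauda libraries. The cauda was lowest without overlap, and its log2 change from the caput was −0.54 ± 0.22 (adjusted p = 0.08). Levels of miR-181a-5p ranged from 9143 to 16382 CPM and those of miR-181b-5p from 233 to 478 CPM over the 6 libraries, with no change past the threshold under TMM scaling.

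Of the 5 members, miR-181d-5p alone passed in epithelial cells by limma, 1 of 5 from caput to corpus, with a rise, beside 19.0% of the 205 miRNAs tested and 9.76% with a rise. Over caput to cauda 1 of 5 passed, again with a rise, beside 39.4% of 216 and 20.8% with a rise. In neither comparison did a passing member change at least 2-fold, beside 12.2% and 25.9% of all miRNAs. Over the 9 alternatives run for it, however, the rise of miR-181d-5p into the corpus ran from 0.72 to 1.03, past 2-fold at the upper end. Between corpus and cauda limma passed 0 of 5 beside 13.5% of 192, with 0 at an unadjusted p under 0.05 and 0 by edgeR or DESeq2. The rise of miR-181d-5p into the corpus missed the threshold without caput replicate 1 (0.96, adjusted p = 0.075), caput replicate 2 (0.82, adjusted p = 0.12) or corpus replicate 1 (0.71, adjusted p = 0.16) and with each miRNA of at least 1 count tested (0.72, adjusted p = 0.067), and its rise from caput to cauda missed it without caput replicate 2 (0.76, adjusted p = 0.087). For miR-181c-5p the change into the corpus passed with the DESeq2 Wald test (0.72, adjusted p = 0.004), DESeq2 size factors (0.71, adjusted p = 0.013), library totals (0.78, adjusted p = 0.025), miR-181b-5p and miR-181d-5p summed (0.67, adjusted p = 0.019) or only the 2 regions compared (0.68, adjusted p = 0.021), and without cauda replicate 1 (0.67, adjusted p = 0.013). Its change from caput to cauda passed with DESeq2 size factors (0.47, adjusted p = 0.041), library totals (0.63, adjusted p = 0.036) or the sum (0.47, adjusted p = 0.041), and without cauda replicate 1 (0.55, adjusted p = 0.041), and that of miR-181a-5p passed with library totals (0.52, adjusted p = 0.046). Scaling to library totals moved the median of all miRNAs by 0.16 for the corpus and by 0.18 for the cauda, each against the caput.

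Marker miRNAs changed along the same epithelial libraries. Between caput and corpus 4 of 9 germ cell markers tested passed with a rise (median log2 change of the list 2.52), while the mean of their sum, led by miR-34c-5p, went from 3607 to 3335 CPM, and 2 of 2 endothelial markers passed with a fall (median −1.197), 2 of 7 epithelial markers with a rise and 1 with a fall, and 0 on the other lists. Between caput and cauda 3 of 3 red blood cell, 2 of 2 leukocyte, 3 of 9 germ cell, 2 of 5 fibroblast and 1 of 2 endothelial markers passed with a rise, 2 of 7 epithelial markers with a rise and 2 with a fall, and 0 of the muscle markers. Their part in the changes of miR-181d-5p and miR-181c-5p was not tested.

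Set beside whole tissue, epithelial cells held less miR-181c-5p in each region, and less of both arms of miR-181c in the caput and cauda. Less miR-181d-5p was found in the caput. Under TMM scaling with all libraries the differences of miR-181a-5p and miR-181b-5p did not pass the test in any region. This comparison asks how much of the family belongs to the isolated epithelium, and preparation, table and sequencing cannot be told apart in it. Since a large share of all miRNAs passed, more may have been called than differ.

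In the caput, miR-181c-5p was at 24059, 26455 and 23204 CPM in whole tissue and at 7362 and 7141 CPM in epithelial cells, and miR-181c-3p was at 1269, 1286 and 1079 CPM against 301 and 378 CPM. Neither arm overlapped between the preparations, and the gap was of similar size for both. Epithelial cells were 3.38-fold lower in miR-181c-5p (log2 difference −1.76 ± 0.11, limma adjusted p = 2e-08) and 3.58-fold lower in miR-181c-3p (−1.84 ± 0.19, adjusted p = 1.6e-06). For miR-181d-5p the caput libraries held 1182, 1395 and 1165 CPM in whole tissue and 643 and 693 CPM in epithelial cells. It was 1.86-fold lower in the epithelial cells, without overlap (−0.90 ± 0.14, adjusted p = 0.00011; −0.59 with library totals). Between 10497 and 14579 CPM of miR-181a-5p in whole tissue stood against 9705 and 9334 CPM in epithelial cells, which did not overlap either. The log2 difference of miR-181a-5p was −0.37 ± 0.16 (limma adjusted p = 0.055), and it passed without whole tissue caput replicate 1 (−0.48, adjusted p = 0.016). It was −0.35 without epithelial cauda replicate 1 and shrank to −0.061 without epithelial caput replicate 2. Over the 8 alternatives it ran from −0.38 to −0.067 and did not pass under any.

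In the cauda the libraries of miR-181c-5p held 22524, 19219 and 22189 CPM in whole tissue and 10652 and 11807 CPM in epithelial cells, and those of miR-181c-3p held 491, 443 and 467 CPM against 264 and 267 CPM. Again neither arm overlapped. Epithelial cells were 1.90-fold lower in miR-181c-5p (log2 difference −0.93 ± 0.11, adjusted p = 1e-05) and 1.75-fold lower in miR-181c-3p (−0.81 ± 0.22, adjusted p = 0.0061). Only miR-181c-5p passed in the corpus by limma, at 19133 and 16711 CPM in whole tissue and 13775 and 11578 CPM in epithelial cells, a log2 difference of −0.50 ± 0.13 (adjusted p = 0.0069), which ran to −0.81 with 1 library left out. For miR-181a-5p in the cauda the log2 difference was 0.34 ± 0.16 (limma adjusted p = 0.075), with 9858, 11232 and 11597 CPM in whole tissue and 16382 and 11350 CPM in epithelial cells. It turned to −0.11 without epithelial cauda replicate 1 and was 0.49 without epithelial cauda replicate 2. Over the 8 alternatives it ran from 0.046 to 0.43 and passed under 1, library totals (0.43, adjusted p = 0.013).

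The count of members that passed was 3 of 5 in the caput, all lower in epithelial cells, beside 60.3% of the 194 miRNAs tested and 37.6% that passed as lower, and 2 of 5 differed at least 2-fold beside 37.1%. In the corpus 1 of 5 passed, as lower, beside 47.9% and 25.8%, and 0 of 5 differed at least 2-fold beside 30.4%, and in the cauda 2 of 5 passed, both as lower, beside 61.9% and 28.4%, and 0 of 5 differed at least 2-fold beside 39.7%. Over the 8 alternatives, however, the cauda difference ran past 2-fold, to −1.22 for miR-181c-5p and to −1.10 for miR-181c-3p. The median log2 difference of the members was −0.90 in caput libraries, 0.065 in corpus libraries and −0.086 in cauda libraries, beside −0.28, −0.027 and 0.080 over all miRNAs. Scaling to library totals moved the median of all miRNAs by 0.30 in the caput, and DESeq2 size factors moved it by 0.11 in the caput and by −0.18 in the cauda. Under every alternative tried and without any 1 of the 14 libraries, miR-181c-5p passed as lower in all 3 regions, miR-181c-3p in caput and cauda and miR-181d-5p in the caput. In the corpus the count became 2 of 5, with miR-181c-3p added, without whole tissue corpus replicate 2 (−0.84, adjusted p = 0.0096), without epithelial cauda replicate 1 (−0.64, adjusted p = 0.032) or with only miRNAs of at least 10 counts in every library (−0.62, adjusted p = 0.035), and with that filter miR-181d-5p also passed as lower in the cauda (−0.38, adjusted p = 0.035).

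The study let fibroblasts and muscle cells settle on culture plates, kept the cells in suspension and found no sperm among them by staining or blotting. It describes the isolates as highly enriched and reports that all cells seen carried the androgen receptor. The libraries of these isolates held marker miRNAs of epithelium and also miRNAs on the lists of other cell types. Epithelial markers, 7 of 7 listed and led by miR-205-5p, summed to 22636 and 24618 CPM in caput libraries, 36635 and 41588 CPM in corpus libraries and 32901 and 41233 CPM in cauda libraries, against 8980.4 to 22927 CPM in whole tissue. Smooth muscle markers, 4 of 6 names listed and led by miR-143-3p, summed to 113597 and 183726, then 200163 and 214908, then 327172 and 157707 CPM, and endothelial markers, 2 of 4 names listed and led by miR-126-5p, to 28103 and 23955, then 13507 and 13396, then 55048 and 46489 CPM. Both of these lists were above whole tissue in the caput, and the endothelial list also in the cauda. In these regions both miR-181c-5p and miR-181c-3p were lower in the isolates. The smooth muscle list was above whole tissue in the corpus too, where miR-181c-5p was lower. There, however, the endothelial list was below whole tissue (14777 and 15600.3 CPM) without overlap. In the cauda the smooth muscle list overlapped whole tissue (243605 to 279651 CPM), and miR-143-3p did not pass (−0.26, limma adjusted p = 0.33). Of the names in both tables, miR-143-3p passed as higher in epithelial cells in caput (1.26) and corpus (1.28), and the striated muscle marker miR-133a-3p did so by more (3.75, adjusted p = 0.0022, and 2.99, adjusted p = 0.017). The sum of the epithelial list was of like height in both caput preparations, but its members were not, since miR-205-5p (log2 difference 2.25) and miR-203-3p (1.02) passed as higher in epithelial cells and miR-141-3p (−1.24), miR-200a-3p (−1.12) and miR-429-3p (−0.42) as lower. Germ cell markers, 12 of 12 listed and led by miR-34c-5p with miR-34c-3p at 0 in the corpus, gave 3542 and 3672, then 3964 and 2706, then 2698 and 6869.9 CPM, and leukocyte markers, 5 of 5 listed and led by miR-142-5p, gave 679.9 and 442, then 666 and 522, then 1541 and 1376 CPM. In each region these sums, with the miR-142a names of the whole tissue table counted, were lower than in whole tissue, whereas miR-150-5p, the 1 leukocyte marker tested between the preparations, was higher in epithelial cells in the caput (log2 difference 1.39, adjusted p = 0.0022) and in the cauda (1.84, adjusted p = 3.4e-05), with −0.52 in the corpus (adjusted p = 0.35). Fibroblast markers, 6 of 6 listed and led by miR-199a-3p, gave 2363 and 3070.01, then 3872 and 4535, then 6836 and 4670.4 CPM, and this sum too hid a split, since in the caput miR-199a-3p (1.03), with the same values under miR-199b-3p, and miR-214-3p (1.39) passed as higher in epithelial cells and miR-199a-5p (−1.23) and miR-199b-5p (−1.74) as lower. In corpus and cauda miR-199a-3p again passed as higher and both 5p arms as lower. Striated muscle markers, 5 of 6 listed and led by miR-133a-3p with miR-208b-3p and miR-499-5p at 0 in caput and corpus, gave 296 and 339, then 559 and 596, then 456 and 309 CPM, and red blood cell markers, 4 of 6 names listed and led by miR-486-5p, gave 372 and 358, then 195 and 444, then 2881 and 1583 CPM. The striated muscle sum was above whole tissue in caput and corpus and the red blood cell sum in caput and cauda, each without overlap. What part any of these lists had in the differences of the miR-181 members was not tested.

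The change out of the caput was itself compared between the preparations. From caput to corpus miR-181c-5p fell in whole tissue (−0.55), while its epithelial change was 0.61 and missed the threshold, and the difference between these changes had the smallest adjusted p among the members. Both miR-181d-5p and miR-181c-3p also differed in that comparison. From caput to cauda miR-181a-5p joined them, and in each of these cases the epithelial change was the more positive.

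The caput to corpus change of miR-181c-5p was higher in epithelial cells than in whole tissue by 1.26 ± 0.17 on the log2 scale (95% interval 0.89 to 1.63, limma adjusted p = 0.00072), that of miR-181d-5p by 0.98 ± 0.22 (0.51 to 1.45, adjusted p = 0.021) and that of miR-181c-3p by 1.35 ± 0.32 (0.65 to 2.04, adjusted p = 0.025). In this comparison 3 of 5 members passed, all positive, beside 6.70% of the 194 miRNAs tested and 6.19% that were positive, and 2 of 5 differed at least 2-fold beside 4.12%. For caput to cauda the differences were 0.83 ± 0.16 for miR-181c-5p (adjusted p = 0.0023), 0.81 ± 0.20 for miR-181d-5p (adjusted p = 0.0084), 1.04 ± 0.29 for miR-181c-3p (adjusted p = 0.017) and 0.70 ± 0.22 for miR-181a-5p (adjusted p = 0.028). Here 4 of 5 passed, all positive, beside 32.0% and 25.3% that were positive, and 1 of 5 differed at least 2-fold beside 20.1%, while the median over all miRNAs was 0.38. Between corpus and cauda limma passed 0 of 5 beside 8.76%, with 1 at an unadjusted p under 0.05 and 0 by edgeR and 1 by DESeq2, and the difference for miR-181c-5p was −0.43 ± 0.17 (adjusted p = 0.13), or −0.69 with the DESeq2 Wald test (adjusted p = 0.0061) and with DESeq2 size factors (adjusted p = 0.043).

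Marker lists moved in these comparisons too. Of the 7 epithelial markers, 4 passed with a more positive epithelial change and 0 with a more negative one between caput and corpus (median difference 0.80), as did 5 and 0 between caput and cauda (median 1.43), the direction in which the members differed. Between caput and cauda miR-143-3p, the 1 smooth muscle marker tested (−1.52), 2 of 5 fibroblast and 1 of 9 germ cell markers passed with a more negative one, and 0 markers of the remaining lists passed in either comparison. Of these remaining lists, those of leukocytes, striated muscle and red blood cells had 1 marker tested each. The endothelial list had 0 tested, so that none of its markers could pass. The part of any list in the differences of the members was not tested.

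These differences rested on few libraries. With library totals or either other filter on low counts miR-181c-5p alone passed from caput to corpus, and for caput to cauda it alone passed with DESeq2 size factors or library totals and 0 of 5 members with either filter, while miR-181a-5p also missed the threshold with the DESeq2 Wald test (0.45, adjusted p = 0.24). For miR-181c-5p from caput to corpus the test passed under all 8 alternatives tried and missed the threshold without epithelial caput replicate 2 (0.96, adjusted p = 0.067) or epithelial corpus replicate 1 (0.92, adjusted p = 0.051). Those of miR-181c-3p (0.97 to 1.28, adjusted p = 0.057 to 0.16) and miR-181d-5p (0.67 to 0.95, adjusted p = 0.052 to 0.22) missed it without epithelial caput replicate 1, caput replicate 2, corpus replicate 1, corpus replicate 2 or cauda replicate 2 or whole tissue corpus replicate 2, and miR-181d-5p also without whole tissue corpus replicate 1 (0.76, adjusted p = 0.13). For caput to cauda 0 of 5 passed without epithelial caput replicate 2, where miR-181c-5p stood at 0.35 (adjusted p = 0.28), miR-181d-5p at 0.40 (adjusted p = 0.3), miR-181c-3p at 0.73 (adjusted p = 0.2) and miR-181a-5p at 0.21 (adjusted p = 0.66). Without epithelial cauda replicate 2, miR-181c-5p (0.53, adjusted p = 0.064), miR-181d-5p (0.48, adjusted p = 0.17) and miR-181c-3p (0.79, adjusted p = 0.13) missed the threshold, without epithelial caput replicate 1 miR-181d-5p (0.77, adjusted p = 0.054), miR-181c-3p (0.88, adjusted p = 0.093) and miR-181a-5p (0.75, adjusted p = 0.079) did, and without epithelial cauda replicate 1 miR-181c-3p (0.86, adjusted p = 0.083) and miR-181a-5p (0.25, adjusted p = 0.44) did. The value of miR-181a-5p further missed it without whole tissue corpus replicate 1 (0.52), corpus replicate 2 (0.52) or cauda replicate 1 (0.63) or epithelial corpus replicate 1 (0.52) or corpus replicate 2 (0.53). Scaling to library totals moved the median of all miRNAs by −0.27 for caput to corpus and by −0.22 for caput to cauda, and DESeq2 size factors moved it by −0.26 from corpus to cauda and by −0.29 from caput to cauda.

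Ratios of counts within a library do not depend on the scaling, and they showed the balance of the family to differ by preparation and the balance of the miR-181c arms to differ by region. Relative to miR-181a-5p, epithelial cells held less miR-181c-5p than whole tissue in each region. The share of the 3p arm of miR-181c was higher in the caput than in the cauda, and it was of like size in both preparations. Relative to its chromosomal neighbour miR-181c-5p, miR-181d-5p was higher in epithelial cells than in whole tissue.

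The count of miR-181c-3p as a percentage of miR-181c-5p was 4.93 ± 0.317% (SD, n = 3) in whole tissue caput libraries, 2.74 ± 0.386% (n = 2) in corpus libraries and 2.20 ± 0.1004% (n = 3) in cauda libraries. In epithelial cells it was 4.69 ± 0.854%, 2.76 ± 0.687% and 2.37 ± 0.156% (n = 2 each). By library the log2 ratio was −4.25, −4.36 and −4.43 in the whole tissue caput and −5.52, −5.44 and −5.57 in its cauda, and −4.61 and −4.24 in the epithelial caput and −5.33 and −5.47 in its cauda. Caput and cauda did not overlap in either preparation, and the 2 preparations covered much the same range. The ratio was 2.0997-fold lower in the cauda (mean log2 difference −1.07, with −1.17 in whole tissue and −0.98 in epithelial cells, exact permutation p = 0.017, adjusted p = 0.033 over 12 tests), where 0.017 is the smallest p that the 120 arrangements allow. Between the preparations it differed by 0.0087 on the log2 scale (exact permutation p = 0.93), with −0.082 in caput libraries, −5.3e-04 in corpus libraries and 0.11 in cauda libraries.

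The ratio of miR-181c-5p to miR-181a-5p was 2.29, 1.81 and 1.92 in whole tissue caput libraries, 1.98 and 1.79 in those of the corpus and 2.28, 1.71 and 1.91 in those of the cauda. For epithelial cells it was 0.759 and 0.765 in caput libraries, 1.29 and 1.27 in corpus libraries and 0.650 and 1.04 in cauda libraries. Every epithelial library lay below every whole tissue library, and among the epithelial cells the corpus stood above caput and cauda. It was 2.096-fold lower in epithelial cells (mean log2 difference −1.07, with −1.39 in caput libraries, −0.56 in corpus libraries and −1.25 in cauda libraries, exact permutation p = 0.0017, adjusted p = 0.0067), and 0.0017 is the smallest p that the 600 arrangements allow. The ratio of both miRNAs of the chromosome 8 pair, miR-181c-5p and miR-181d-5p, to miR-181a-5p and miR-181b-5p together was lower in epithelial cells by the same test, with a log2 difference of −1.01 (exact permutation p = 0.0017, adjusted p = 0.0067). Neither ratio passed between cauda and caput, at 0.040 (adjusted p = 0.95) and 0.066 (adjusted p = 0.92).

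The log2 ratio of miR-181d-5p to miR-181c-5p was −4.35, −4.24 and −4.32 in whole tissue caput libraries, −3.85 and −3.68 in those of the corpus and −3.92, −3.93 and −3.90 in those of the cauda. In epithelial cells it was −3.52 and −3.37 in caput libraries, −3.23 and −3.16 in corpus libraries and −3.11 and −3.04 in cauda libraries. The caput was lowest in both preparations without overlap, and each epithelial library lay above each whole tissue library. It was 1.69-fold higher in epithelial cells (mean log2 difference 0.76, with 0.86 in caput libraries, 0.57 in corpus libraries and 0.84 in cauda libraries, exact permutation p = 0.0017, adjusted p = 0.0067) and 1.30-fold higher in cauda libraries than in caput libraries (0.38, with 0.39 in whole tissue and 0.37 in epithelial cells, exact permutation p = 0.017, adjusted p = 0.033). The latter call was lost when labels were permuted over all libraries and not within a preparation (0.38, adjusted p = 0.5). Within 1 preparation no region test could reach 0.05, since the smallest exact p was 0.1 for 3 against 3 libraries and 0.33 for 2 against 2.

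The ratio of miR-181d-5p to miR-181b-5p, whose fractional counts were taken as divided reads and whose division is uncertain, was lower in epithelial cells (log2 difference −0.41, exact permutation p = 0.0083, adjusted p = 0.025), with −0.74 in caput libraries, −0.076 in corpus libraries and −0.41 in cauda libraries. The ratio missed the threshold without epithelial corpus replicate 1 (−0.35, adjusted p = 0.053) or epithelial cauda replicate 1 (−0.38, adjusted p = 0.058). Between cauda and caput it differed by 0.32 (adjusted p = 0.14), and passed only without whole tissue cauda replicate 2 (0.40, adjusted p = 0.029). The ratio of miR-181b-5p to miR-181a-5p, a pair that is encoded together at 2 places, differed by 0.098 between the preparations (adjusted p = 0.49) and by 0.097 between cauda and caput (adjusted p = 0.56). The latter was 0.20 in whole tissue, without overlap, and −0.0066 in epithelial cells. In the whole tissue corpus the ratio was 3.78 and 3.84%, against 2.39 to 2.67% in the caput and 2.75 to 3.06% in the cauda. In epithelial cells the corpus, at 4.46 and 3.66%, also lay above caput (3.33 and 2.50%) and cauda (2.36 and 3.48%). How the corpus differed from the other regions was not tested.

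**Figure D2:**
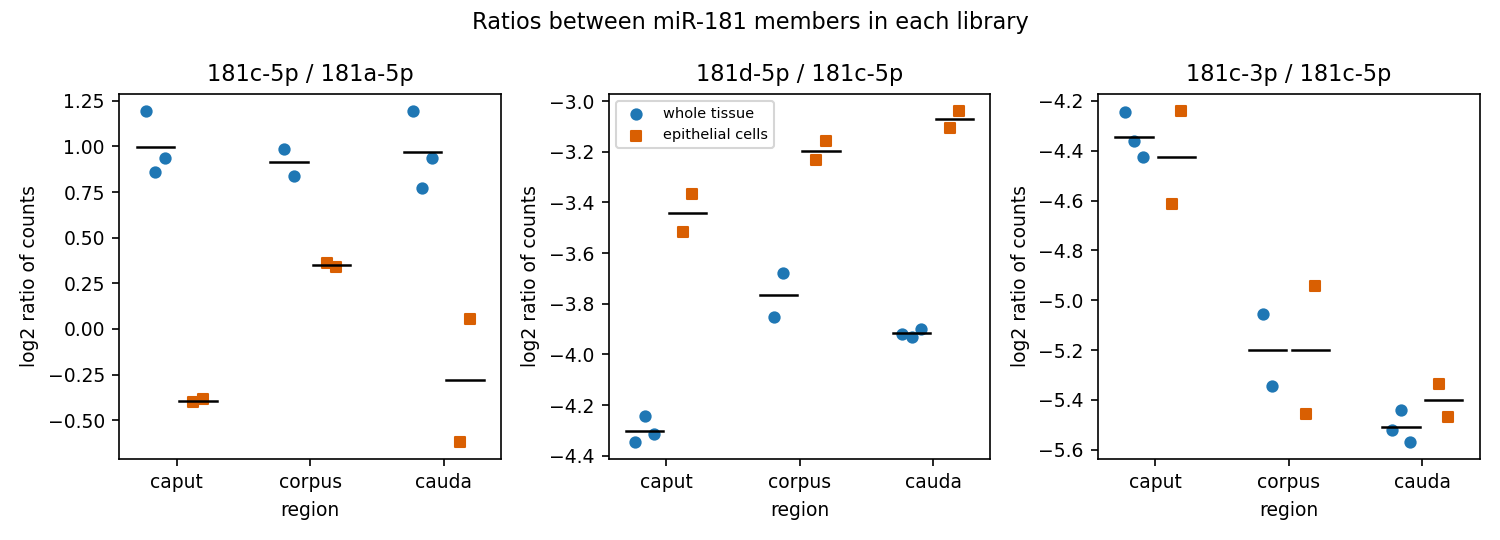
Log2 ratios of counts between miR-181 members in each of the 14 libraries, by region, with circles for whole tissue, squares for epithelial cells and a bar at each group mean. For miR-181c-5p over miR-181a-5p the epithelial libraries, at −0.62 to 0.36, lie below the whole tissue libraries, at 0.77 to 1.197, and for miR-181c-3p over miR-181c-5p the caput libraries of both preparations lie above the cauda libraries.

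Among the other arms of the family's hairpins, miR-181a-1-3p was counted in each library and moved in another way than miR-181c-3p, with which it shares its seed. It totalled 1685 counts in the 8 whole tissue libraries and 98 in the 6 epithelial libraries. In whole tissue it was at 137, 116 and 108 CPM in caput libraries, 100.4 and 109.8 CPM in corpus libraries and 165, 170.02 and 177 CPM in cauda libraries. The cauda was highest without overlap, whereas for miR-181c-3p the caput was. It rose from corpus to cauda (log2 change 0.64 ± 0.15, limma adjusted p = 0.0041) and from caput to cauda (0.37 ± 0.12, adjusted p = 0.019; 0.38 and adjusted p = 0.05 with each miRNA of at least 1 count tested, and 0.72 with library totals). In epithelial cells it was lower than in whole tissue in the caput (log2 difference −1.198 ± 0.28, adjusted p = 0.0017), at 68.5 and 36.3 CPM, and in the cauda (−0.93 ± 0.26, adjusted p = 0.0075), at 105 and 71.4 CPM, and these calls were lost without epithelial caput replicate 2 (−0.50, adjusted p = 0.25) and epithelial cauda replicate 2 (−0.79, adjusted p = 0.06). Each of miR-181b-1-3p, miR-181b-2-3p and miR-181d-3p had between 0 and 2 counts in any library, and miR-181a-2-3p was listed in neither table.

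Of the 188 miRNAs outside the family that both tables measured, those whose profile over the 14 libraries was most like that of miR-181a-5p were miR-151-3p, miR-15a-5p and miR-24-3p, at root mean square differences of 0.26, 0.26 and 0.28 on the log2 scale, where the median over all candidates was 0.76. Within the family, miR-181b-5p was nearest to miR-181a-5p (0.29), followed by miR-181d-5p (0.38) and miR-181c-5p (0.60). For miR-181c-5p the nearest outside the family were miR-151-5p, miR-200a-5p and miR-30d-3p, at 0.32, 0.38 and 0.39 with a median of 0.94, and miR-181d-5p (0.44) and miR-181c-3p (0.50) were its nearest relatives. The miR-151 names are the arms of 1 hairpin, and its 5p arm, at 3374 ± 363 CPM in the whole tissue caput and 1767 ± 172 CPM in the epithelial caput, stood lower in epithelial cells, as miR-181c-5p did. Its 3p arm stood at 1310 ± 93.5 and 1551 ± 16.5 CPM in the same groups.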

How the data were processed

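The authors pooled tissue or cells of several mice per library and deposited unnormalized expected counts of mature miRNAs for 8 whole tissue and 6 epithelial libraries, in the latter with 0.001 added to each value, which was removed. The submitters' processing notes name CASAVA 1.8.2, Bowtie 1.1.1 and limma. Counts were rounded, scaled with TMM factors (edgeR 4.0.16) and tested two-sided with limma-voom (limma 3.58.1, R 4.3.3) in 1 fit per preparation, over miRNAs with a mean count above 10 in either region compared. Differences between preparations, and interactions with region, came from 1 fit of 14 libraries over the 194 names above that minimum in both tables, so that miRNAs named differently in the tables were not in it. P-values were adjusted by Benjamini-Hochberg. A miRNA passed at an adjusted p below 0.05. Region changes used the scaling factors of their own preparation, and levels in CPM those of the 14 libraries, so that log2 changes and ratios of levels can differ.

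Count ratios were tested by exact two-sided permutation within preparation or region, with 12 tests adjusted together. Marker lists covered leukocytes, smooth and striated muscle, endothelium, red blood cells, epithelium, germ cells and fibroblasts. Likeness was measured on log2 CPM with a pseudocount of 0.5, each profile centred on its own mean. Hairpin positions came from RefSeq and the genes around them from GENCODE. Named were the 5 members, the other arms of their hairpins, the 3 miRNAs most like miR-181a-5p and miR-181c-5p, and the most abundant miRNA of each marker list. The members and lists were chosen with earlier results of these data known. The background shares by direction and by fold and the leukocyte list with miR-142a names were added after seeing the data.

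Alternatives were edgeR's quasi-likelihood test, DESeq2's Wald test (DESeq2 1.42.0), DESeq2 size factors, library totals, all miRNAs with at least 1 count, only those with at least 10 counts in every library, unrounded counts, miR-181b-5p and miR-181d-5p summed, only the 2 regions compared, a replicate block, and each library left out. For ratios they were rounding, a pseudocount of 0.5 and permutation over all libraries. Ratios and figures used Python 3.11.15, pandas 2.3.3, NumPy 2.4.6 and Matplotlib 3.10.9. The steps were tested on simulated data. In a first simulation of the 14-library fit, in which most of the miRNAs differed between the preparations, log2 differences were shifted and too many unchanged miRNAs were called, and the fit was then tested again, unchanged, with fewer miRNAs differing, where it recovered them. In the real data 117 of 194 passed in the caput, nearer to the first simulation, so the log2 differences between preparations depend on the scaling, and the calls between preparations and in the interactions, with their adjusted p-values, may be too many and too small, which does not apply to the count ratios.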

Additional observations from a re-analysis of the deposited data

Results flagged for a closer look

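For 7 values the change of a miR-181 member between 2 regions differed between epithelial cells and whole tissue by the interaction test of limma, which is what brought them here. From caput to corpus the epithelial change was the higher by 1.26 for miR-181c-5p, 0.98 for miR-181d-5p and 1.35 for miR-181c-3p on the log2 scale. From caput to cauda it was the higher by 0.70 for miR-181a-5p, 0.83 for miR-181c-5p, 0.81 for miR-181d-5p and 1.04 for miR-181c-3p. All 7 rest on 2 epithelial libraries per region, and none passed without epithelial caput replicate 2.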

How the results depend on the processing

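The fall of miR-181c-3p out of the caput in whole tissue passed under all 10 alternatives (−1.47 to −1.07 into the corpus, −1.53 to −1.17 into the cauda), as did the lower miR-181c-5p of epithelial cells in all 3 regions under 8 (−1.76 to −0.42). In whole tissue the count of members past the threshold from caput to cauda went from 3 to 2 with the DESeq2 Wald test, DESeq2 size factors or library totals, and from caput to corpus it was 3 with library totals too but for other members, with miR-181b-5p and miR-181d-5p in place of miR-181a-5p and miR-181c-5p. From caput to corpus in epithelial cells, 1 became 2 with the DESeq2 Wald test, DESeq2 size factors, library totals or only the 2 regions compared, 3 with miR-181b-5p and miR-181d-5p summed and counted for both, and 0 with all miRNAs of at least 1 count. For caput to cauda there, 1 became 2 with DESeq2 size factors and 3 with library totals or the sum. In the interactions, 3 from caput to corpus became 1 with library totals, all miRNAs of at least 1 count or at least 10 counts in every library. With the sum 3 became 4. Over caput to cauda, 4 became 3 with the DESeq2 Wald test, 5 with the sum, 1 with DESeq2 size factors or library totals and 0 with either filter on counts, and 0 from corpus to cauda became 1 with the DESeq2 Wald test or size factors. Against whole tissue in the corpus, 1 became 2 with at least 10 counts in every library, in the caput 3 became 4 with the sum, and in the cauda 2 became 3 with library totals or at least 10 counts in every library. Fewer or more miRNAs tested is part of how the filters are built, and otherwise the cause was not tested.

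With 1 library left out, the counts ran from 1 to 3 in whole tissue from caput to corpus and from caput to cauda, from 0 to 2 in epithelial cells for the same comparisons, from 1 to 2 against whole tissue in the corpus, and in the interactions from 0 to 3 from caput to corpus and 0 to 4 from caput to cauda. Against whole tissue in the caput, the count also rose from 3 to 4 without whole tissue caput replicate 1. A group left with 1 library was assumed to vary like the others. The log2 ratio differences between cauda and caput ran from −0.10 to 0.23 for (c-5p + d-5p) over (a-5p + b-5p), −0.13 to 0.21 for c-5p over a-5p, −0.043 to 0.24 for b-5p over a-5p and 0.18 to 0.47 for d-5p over b-5p. Between preparations they ran from 0.0052 to 0.19 for b-5p over a-5p (adjusted p = 0.064 to 0.96), from −0.50 to −0.31 for d-5p over b-5p and from −0.077 to 0.094 for c-3p over c-5p. Values that turned were those of c-3p over c-5p between preparations (−0.0049, −0.039, −0.0012, −0.054, −0.077 and −0.014 without 1 library, −0.014 with labels permuted over all libraries), and between cauda and caput c-5p over a-5p (−0.016, −0.13), b-5p over a-5p (−0.0067, −0.043) and the 4-member ratio (−0.10). Permuted over all libraries, d-5p over c-5p between cauda and caput gave 0.38 (adjusted p = 0.5). Among member values, miR-181a-5p turned to 0.024 in whole tissue from caput to cauda with library totals, and against whole tissue in the cauda, without 1 library, ran from −0.11 to 0.49. Of 26 pairs of miRNA and comparison with an adjusted p below 0.1, 2 changed sign under some alternative or left-out library, and of the 34 others 19 did. The limit of 0.1 was chosen after these values had been seen. The cause was not tested.

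With the replicate number as a replicate block, the members past the threshold stayed at 3, 0 and 3 in whole tissue and 1, 0 and 1 in epithelial cells, while all miRNAs past it went from 198 to 183, 185 to 180 and 281 to 281 in whole tissue and from 39 to 38, 26 to 26 and 85 to 78 in epithelial cells, from caput to corpus, corpus to cauda and caput to cauda. The labels name no shared source behind a number. Same-numbered whole tissue libraries correlated across miRNAs, as deviations from their region, at 0.0094 and 0.0175 between caput and corpus, 0.214 and 0.14 between corpus and cauda and 0.23, 0.134 and 0.112 between caput and cauda, in each case higher than with the other numbers. The deviations of the 2 corpus libraries mirror each other by construction, so with the corpus any positive value was the higher. Epithelial libraries gave 0.189, −0.105 and −0.142. The ratio tests did not use the numbers, and c-5p over a-5p was higher in replicate 1 than in replicate 2 in each whole tissue region (2.29 and 1.81, 1.98 and 1.79, 2.28 and 1.71). Differences between replicates exceeded counting noise. At the depth of the epithelial corpus, with 32 and 36 counts, changes of miR-181b-5p and miR-181c-3p within the counting errors of 17.7 and 16.7% were not detectable. Larger changes could be missed too, since the standard errors of their epithelial log2 changes from caput to corpus were 0.34 and 0.23.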

Other observations

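The 2 epithelial cauda libraries stood apart from each other in several miRNAs. Replicate 1 held miR-181a-5p at 16382 CPM and replicate 2 at 11350 CPM, and the ratio of miR-181c-5p to miR-181a-5p was 0.650 and 1.04. The smooth muscle miRNA miR-143-3p was at 307937 and 152712 CPM, and the germ cell list summed to 2698 and 6869.9 CPM. Whether these differences belong together was not tested.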
